A study of Homo sapiens with 2 samples.

Results

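The genes described here encode 3 families of proteins that bind RNA and act in splicing and other steps of mRNA maturation: the SR splicing factors (SRSF), the heterogeneous nuclear ribonucleoproteins (HNRNP) and the RNA-binding motif proteins (RBM). Their selection rule uses names and no measured value: it takes array probe sets whose platform symbol begins with SRSF or RBM and a digit, or with HNRNP, leaving out pseudogenes with symbols ending in P and a number. This gave 71 of the 14884 genes with a named probe set: 10 SRSF, 21 HNRNP and 40 RBM genes. A named probe set is one to which the platform annotation gives a single gene symbol. By annotation 67 are protein-coding and 4 are antisense RNAs that carry the name of the gene opposite. A gene with several probe sets was represented by the brightest of them, on average over the arrays.

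The levels come from AsPC-1, an established human pancreatic adenocarcinoma cell line, grown in 3D with collagen gel laid over the cells. One culture was held under a compressive stress of 2.9 mmHg for 24 h, and the other was left uncompressed for 24 h. No genetic change or drug is named in the labels, and both cultures are of this 1 line. Total RNA of each culture was measured on 1 array (GeneChip Human Gene 2.0 ST). With 1 array per condition there is no replicate check and no test, and this number of arrays sets the precision. Levels are log2 RMA signals per probe set. A difference is the compressed minus the uncompressed log2 signal, and "higher" and "lower" describe these 2 arrays. Signals of different probe sets do not rank transcripts by abundance. A level is that of a whole culture, so fewer cells with a transcript and less transcript per cell cannot be told apart.

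SR proteins carry RNA recognition motifs and a domain rich in arginine and serine. They bind exons in pre-mRNA, recruit the spliceosome to nearby splice sites, and move between nuclear speckles and nucleoplasm when SRPK and CLK kinases phosphorylate them. The hnRNPs coat nascent transcripts, and many of them repress splice sites, so that exon choice often reflects both groups. The RBM proteins share only the RNA recognition motif. Some are spliceosome subunits or splice site regulators, and others serve ribosome assembly, RNA decay, methylation of adenosine or the exon junction complex. Many SR and hnRNP genes control their own mRNA through exons that bring on decay, and array probe sets do not separate such isoforms.

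The arrays had medians of 3.72 in compressed and 3.75 in uncompressed cells over 53617 probe sets. A level floor was set at 4.79, the median of the gene means, and the 7442 genes at or above it are the background for all shares. Of 12 listed epithelial and pancreatic cancer markers, 9 had a named probe set, and 7 of these were above the floor on both arrays. KRT19 read 10.79 in compressed and 10.78 in uncompressed cells, whereas KRT7, at 3.78 in compressed and 3.36 in uncompressed cells, and S100P were below the floor. Among the 7, TSPAN8 (7.52 in compressed, 8.31 in uncompressed cells) and EPCAM (10.43 in compressed, 10.77 in uncompressed cells) were lower in compressed cells. KRT18 (11.71 in compressed, 11.54 in uncompressed cells) had the most positive difference of the 7. Named probe sets covered 2 of 6 listed fibroblast markers, 2 of 5 leukocyte markers and 2 of 3 endothelial markers. Of these 6 named markers, 4 were below the floor on both arrays. The exceptions were LUM, at 9.39 in compressed and 9.75 in uncompressed cells, and CD68, at 9.26 in compressed and 8.45 in uncompressed cells. Their part in the results below was not tested.

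Promoters are shown first, as the one stretch of sequence that can be set beside the levels. RefSeq promoter records (GRCh38.p14) were found for 64 of the 71 genes, and 50 of these are protein-coding genes above the floor. Of those 50, 38 had a single annotated start, and the windows shown belong to the extremes of these 38: 2 with the most positive differences and 2 with the most negative ones. Each window is the 150 bases before the start, 5′ to 3′ on the gene's strand, with the CCAAT box (CCAAT or its reverse complement ATTGG) and the GC box (GGGCGG or CCGCCC) in capitals. The HNRNPC window lies at chr14:21269443-21269592 on the minus strand, that of RBM18 at chr9:122264841-122264990 (minus), that of HNRNPLL at chr2:38602929-38603078 (minus) and that of SRSF6 at chr20:43457746-43457895 (plus).
HNRNPC: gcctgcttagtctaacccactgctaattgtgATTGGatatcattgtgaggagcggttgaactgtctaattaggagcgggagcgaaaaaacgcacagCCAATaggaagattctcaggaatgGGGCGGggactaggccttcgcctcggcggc
RBM18: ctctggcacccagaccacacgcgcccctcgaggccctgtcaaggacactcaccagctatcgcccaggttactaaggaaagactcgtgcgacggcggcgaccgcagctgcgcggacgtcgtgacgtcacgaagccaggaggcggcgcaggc
HNRNPLL: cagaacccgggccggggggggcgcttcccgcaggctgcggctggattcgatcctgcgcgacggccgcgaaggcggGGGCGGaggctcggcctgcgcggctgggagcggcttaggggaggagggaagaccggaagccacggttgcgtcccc
SRSF6: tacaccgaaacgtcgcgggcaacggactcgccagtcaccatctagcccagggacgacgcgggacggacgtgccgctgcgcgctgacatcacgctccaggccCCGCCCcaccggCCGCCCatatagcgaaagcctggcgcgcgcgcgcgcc
The HNRNPC window holds 2 CCAAT boxes, 1 on each strand, and 1 GC box. SRSF6 has 2 GC boxes, HNRNPLL has 1, and RBM18 has neither element in this window.

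Over the 250 bases before the start, on either strand, the CCAAT box was found in 28 of the 50 promoters (56.0%), against 35.2% of 5716 protein-coding genes above the floor. By family it was found in 11 of 16 HNRNP, 15 of 26 RBM and 2 of 8 SRSF promoters. The GC box was found in 31 of 50 (62.0%, against 69.8%), the TATA box, searched as TATAAA, in 6 (12.0%, against 4.90%), and the ETS element, searched as CCGGAAG, in 11 (22.0%, against 17.1%). The cAMP response element, searched as TGACGTCA, was found in 3 (6%, against 3.06%), RBM18 among them. For genes with several starts the first record was used. The 28 genes with a CCAAT box had a median difference of -0.01 and the 22 without it 0.07. Within the HNRNP family the medians were -0.18 with the box (11 genes) and -0.18 without it (5 genes). Within RBM they were 0.08 with it (15 genes) and 0.07 without it (11 genes). Within SRSF they were 0.03 with it (2 genes) and 0.14 without it (6 genes). Whether the box has a part in the differences was not tested. A match is a run of letters, and no binding was measured.

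Across the 3 families the differences between the arrays were small and ran in both directions. Of the 71 genes, 55 passed the level floor, all of them protein-coding. At a size of 1.5-fold (0.58 on the log2 scale), 2 of the 55 were higher in compressed cells and 0 were lower, whereas 3.95% of all genes above the floor were higher and 1.12% were lower. The share higher among the 55, 3.64%, lay near that background. At a smaller size of 0.32 on the log2 scale, 5 were higher and 2 lower, against backgrounds of 13.5% and 8.28%, and 48 genes stayed inside it. At 2-fold 0 were higher and 0 lower, against 0.954% and 0.0806%. Without the floor, 4 of 71 were at least 1.5-fold higher and 1 was lower, against 3.76% and 2.83% of all 14884 genes. With a floor at the 75th percentile of gene means, 1 of 40 was higher and 0 were lower, against 3.68% and 0.806%. Each of these shares of the members, other than those at 0, is that of 1 to 5 genes. The median difference of the 55 genes was 0.03, against 0.01 over all genes above the floor, and their interquartile range was -0.11 to 0.16, against -0.15 to 0.18. A yardstick from the arrays themselves is the scatter between probe sets of the same gene: over 134 protein-coding genes with 2 such probe sets above the floor, the SD of a single probe set's difference was 0.187. Of the 55 genes, 6 (10.9%) differed by more than 2 such SDs, against 16% of all genes above the floor: HNRNPC, HNRNPA1, SRSF11 and RBM18 on the higher side, RBM47 and SRSF6 on the lower. That SD holds no variation between cultures.

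**Figure D1:**
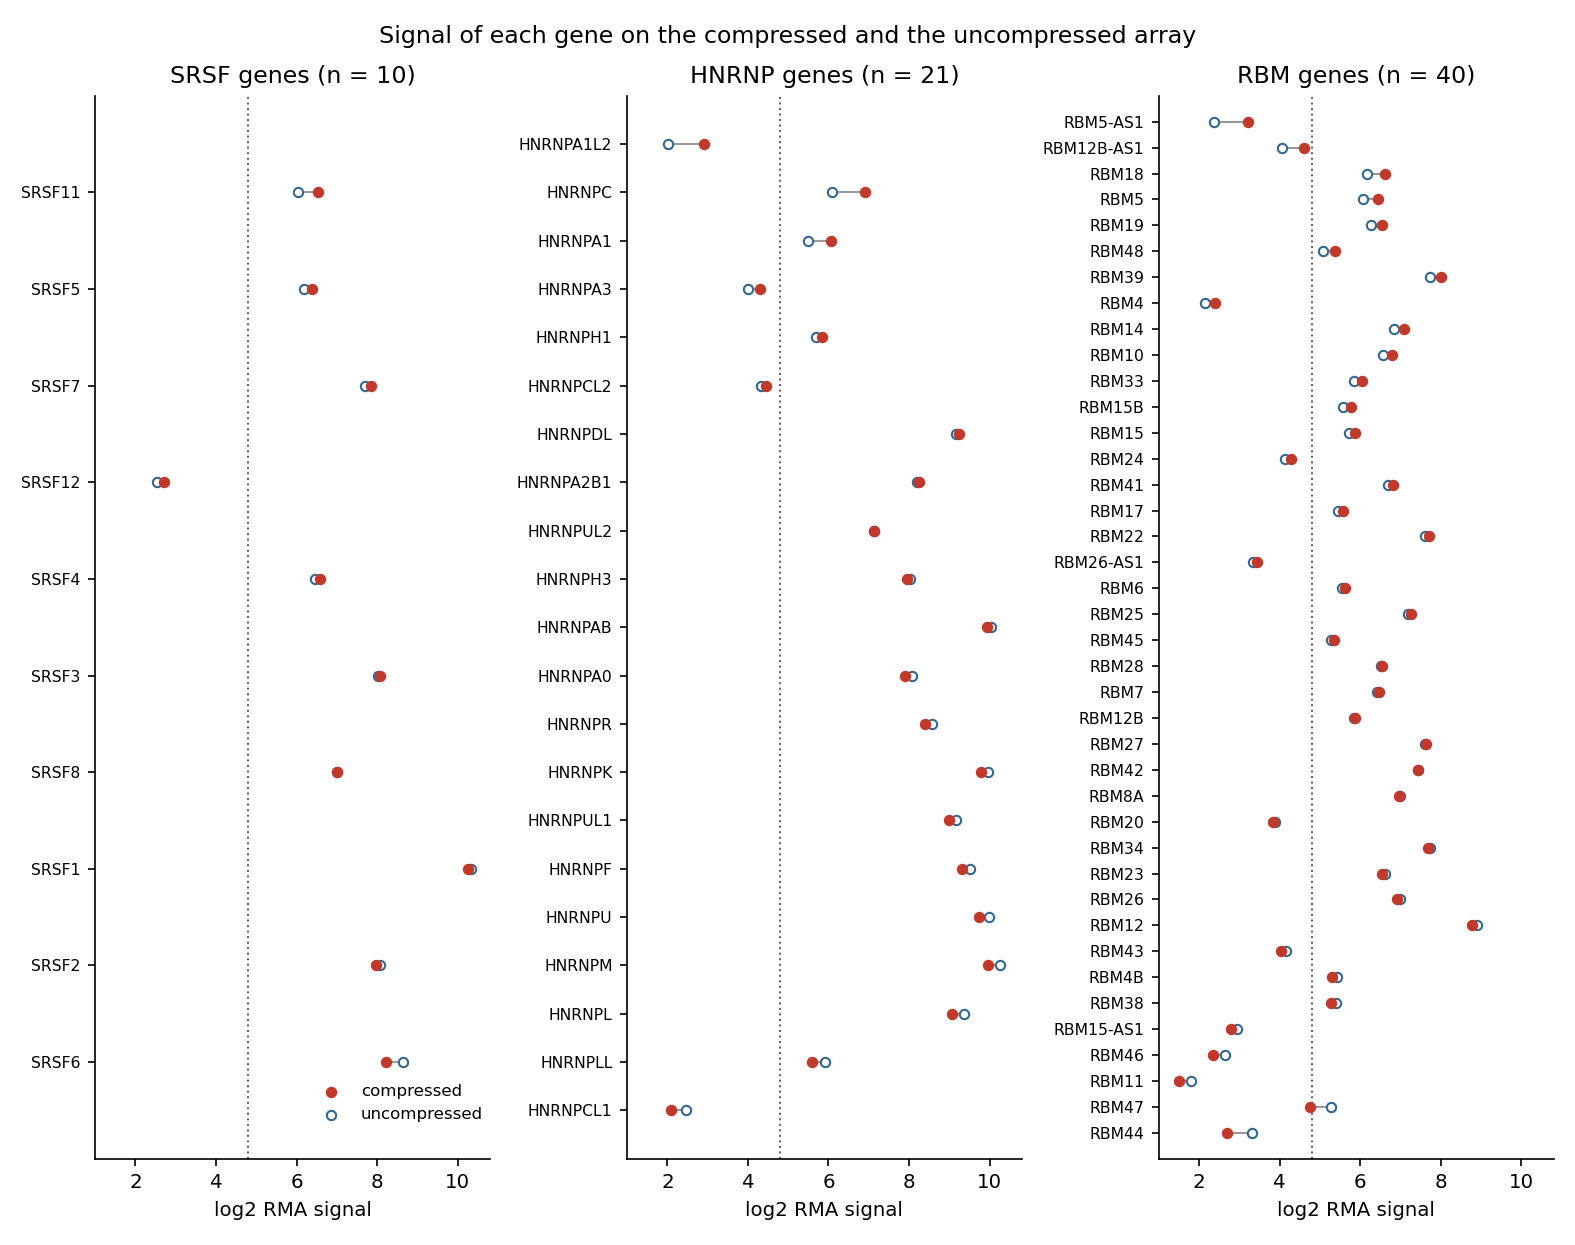
Log2 RMA signal (horizontal axis) of the 10 SRSF, 21 HNRNP and 40 RBM genes in compressed (filled red) and uncompressed cells (open blue), 1 array each, with the genes of each family sorted by difference and the level floor of 4.79 dotted. Most pairs of points nearly coincide. Among genes with a mean above the floor, the wider gaps belong to HNRNPC, HNRNPA1, SRSF11, RBM47, RBM18 and SRSF6. The gap of RBM47 crosses the dotted line.

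The hnRNP genes leaned lower in compressed cells, with 2 exceptions that were the largest positive differences of all 55 genes. Of 17 HNRNP genes above the floor, 12 had a difference below 0 (70.6%, against 46.8% of all genes above the floor) and 5 had one above 0. Their median difference was -0.18. The mean was -0.04, with HNRNPC and HNRNPA1 far above the rest. The lowest HNRNP gene, HNRNPLL, was just short of the smaller size.

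HNRNPC encodes the hnRNP C proteins, which bind uridine-rich tracts of nascent transcripts and keep cryptic exons out of mRNA. Its probe set read 6.91 in compressed and 6.09 in uncompressed cells, a difference of 0.83 or 1.78-fold higher. The difference ranked 121st from the top among the 7442 genes above the floor. HNRNPA1 encodes a shuttling hnRNP that represses exon inclusion. It read 6.07 in compressed and 5.48 in uncompressed cells, 1.5-fold higher (difference 0.59), which is just past the size rule. After loess correction, centring or repeated quantile normalization HNRNPA1 was under 1.5-fold, with differences down to 0.53, while HNRNPC stayed at 0.76 or more.

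Both genes have near-identical copies in the genome that probes may not separate, so the division of signal among them is uncertain. A probe set named for the pseudogene HNRNPA1P10, which the name rule leaves out, read 11.00 in compressed and 10.94 in uncompressed cells, a difference of 0.06. A second probe set of that pseudogene read 8.90 in compressed and 9.00 in uncompressed cells. The probe sets named for HNRNPA1 and for HNRNPA1P10 did not differ alike. Which transcripts each of them reads was not tested, so their values are not levels of the gene and the pseudogene. The copy gene HNRNPA1L2 read 2.91 in compressed and 2.00 in uncompressed cells, both below the floor. Of the HNRNPC-like genes, HNRNPCL2 read 4.44 in compressed and 4.32 in uncompressed cells, and HNRNPCL1 read 2.09 in compressed and 2.46 in uncompressed cells, also below the floor.

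The other 4 members of the A/B family above the floor lay between -0.18 and 0.07. HNRNPA2B1, known as a reader of methylated adenosine, read 8.26 in compressed and 8.20 in uncompressed cells. HNRNPDL read 9.24 in compressed and 9.16 in uncompressed cells. HNRNPAB (9.95 in compressed, 10.05 in uncompressed cells) and HNRNPA0 (7.90 in compressed, 8.07 in uncompressed cells) were on the lower side. HNRNPA3, under the floor, read 4.31 in compressed and 3.99 in uncompressed cells.

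Of the 9 genes of the C, K, L, M, R and U types above the floor, 8 were below 0, with HNRNPC the exception, and their median was -0.19. HNRNPL binds CA-rich RNA, and HNRNPLL is its paralog, known for the splicing of CD45 in lymphocytes. HNRNPLL read 5.60 in compressed and 5.92 in uncompressed cells (difference -0.32), and HNRNPL read 9.06 in compressed and 9.38 in uncompressed cells (-0.31). The paralogs thus differed by about the same amount. HNRNPM, which binds GU-rich RNA and has been linked to mesenchymal splicing in breast cancer cells, read 9.95 in compressed and 10.26 in uncompressed cells, also -0.31. Repeated quantile normalization moved HNRNPM to -0.44.

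HNRNPU, a large RNA- and chromatin-bound scaffold protein, read 9.75 in compressed and 9.98 in uncompressed cells. HNRNPUL1 read 8.99 in compressed and 9.17 in uncompressed cells, whereas HNRNPUL2 read 7.13 in both. HNRNPK, which binds C-rich RNA through KH domains, read 9.79 in compressed and 9.97 in uncompressed cells, and HNRNPR read 8.40 in compressed and 8.58 in uncompressed cells. Of these 5 genes 4 therefore lay between -0.23 and -0.18. In the F/H group, whose proteins bind G-tracts, HNRNPF read 9.30 in compressed and 9.53 in uncompressed cells. HNRNPH3 differed by -0.08 and HNRNPH1 by 0.15.

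**Figure D2:**
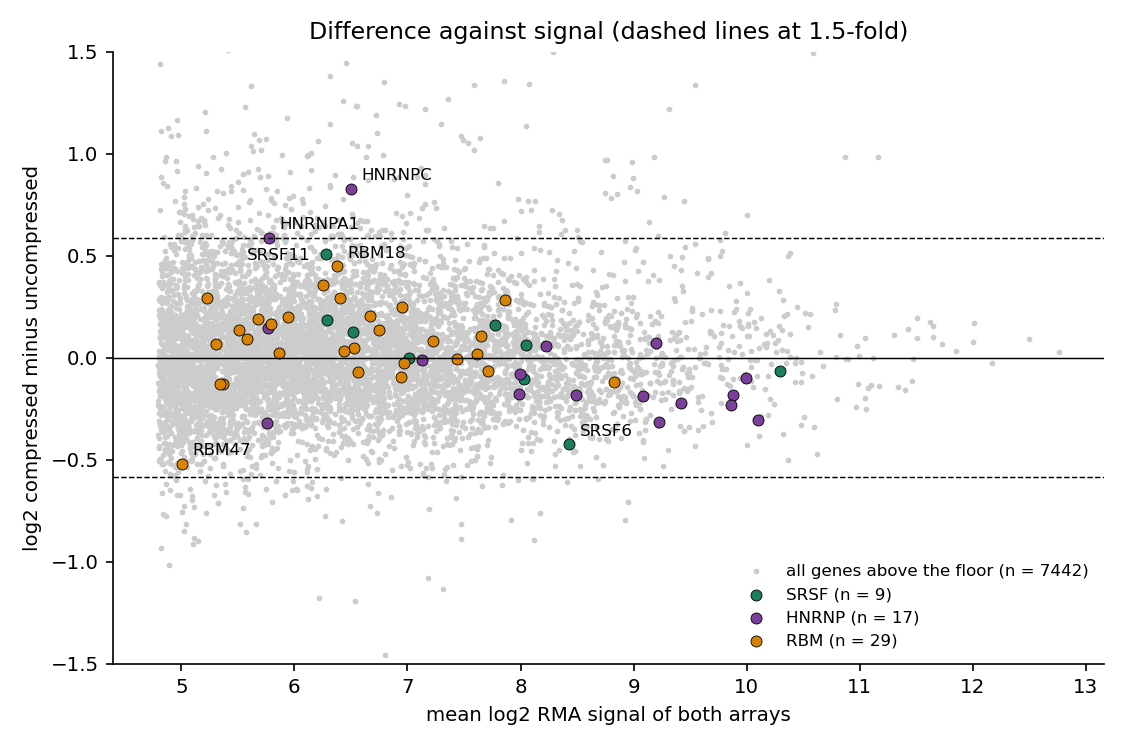
Log2 compressed minus uncompressed (vertical axis) against the mean log2 RMA signal of both arrays (horizontal axis) for the 9 SRSF, 17 HNRNP and 29 RBM genes above the floor, over all 7442 genes above the floor (grey; 21 lie outside the plotted range). HNRNPC and HNRNPA1 are the only coloured points on or above the upper dashed line at 1.5-fold, and the HNRNP points at the right lie mostly below 0.

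Within the HNRNP and SRSF families, but not within RBM, the difference went with the signal of the probe set. Over the 55 genes the Pearson correlation of difference with mean signal was -0.42 (Spearman -0.46), and over all 7442 genes above the floor it was 0.00. All points share the same 2 arrays, so this is a description only. It was -0.58 within the HNRNP family (17 genes) and -0.35 there without HNRNPC and HNRNPA1, -0.61 within SRSF (9 genes) and 0.05 within RBM (29 genes). Above the 75th percentile of gene means, 11 of 14 HNRNP genes were below 0, against 47.3% of the 3721 genes there. The family's median stayed between -0.19 and -0.16 after loess correction of the difference against signal, centring on the median of all genes, the mean of all probe sets and repeated quantile normalization, and in each case 12 of 17 genes were below 0. Repeated quantile normalization itself moved the background to 54.7% below 0. Without the level floor the lean was weaker: 13 of 21 HNRNP genes were below 0, against 50.8% of all genes, with a median of -0.10.

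The SRSF genes had no common direction. Of 9 above the floor, 5 had a difference above 0, 3 below 0, and SRSF8 carried exactly the same value on both arrays, 7.01. Their median difference was 0.07, and 0 passed 1.5-fold in either direction. SRSF8 is a retrotransposed copy of SRSF2, and 3118 of all 53617 probe sets likewise had equal values, so no weight can be put on its difference of 0.

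SRSF11 encodes an SR-related protein also known as p54. It read 6.54 in compressed and 6.03 in uncompressed cells, a difference of 0.51 and the third largest positive one of the 55 genes. SRSF6, which encodes an activator of exon inclusion known as SRp55, lay at the other end. It read 8.22 in compressed and 8.64 in uncompressed cells, a difference of -0.42 or 1.34-fold lower. Both passed the smaller size, in opposite directions, and both kept that direction under every rescaling (SRSF11 0.44 or more, SRSF6 -0.40 or less).

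The other classical SR genes differed little. SRSF1, the prototype of the family, read 10.26 in compressed and 10.32 in uncompressed cells. SRSF2, whose protein marks nuclear speckles, read 7.98 in compressed and 8.08 in uncompressed cells. SRSF3, which also takes part in mRNA export, read 8.08 in compressed and 8.01 in uncompressed cells. These 3 genes each differed by 0.10 or less in size. SRSF4 (6.58 in compressed, 6.45 in uncompressed cells), SRSF5 (6.38 in compressed, 6.19 in uncompressed cells) and SRSF7 (7.85 in compressed, 7.69 in uncompressed cells) were on the higher side. SRSF12 was below the floor on both arrays, at 2.70 in compressed and 2.54 in uncompressed cells. SRSF9 and SRSF10 had no named probe set and were not analysed here.

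The RBM genes leaned slightly higher. Of 29 above the floor, 20 had a difference above 0 (69.0%, against 50.8% of all genes above the floor) and 9 below 0, with a median of 0.08. At 1.5-fold 0 passed. Above the 75th percentile of gene means 11 of 17 were above 0, against 51.2%. After repeated quantile normalization 16 of 29 were above 0, with a median of 0.05, against 45.0% of all genes. The lean is therefore made of small values, several of which lie near 0.

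**Figure D3:**
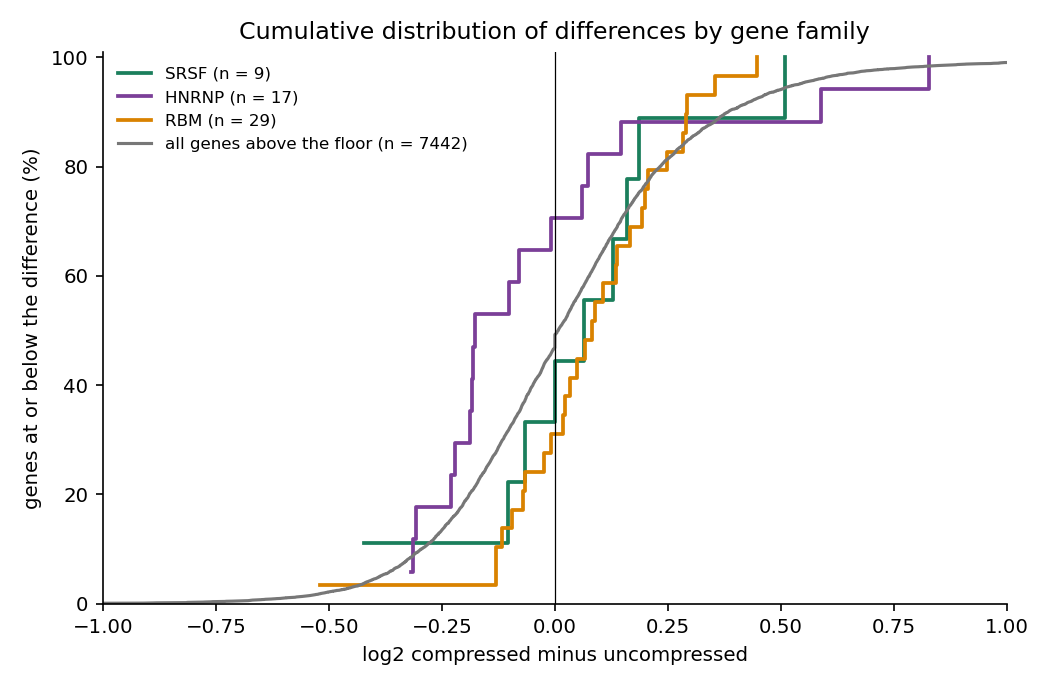
Percentage of genes (vertical axis) at or below each log2 compressed minus uncompressed difference (horizontal axis) for the SRSF, HNRNP and RBM genes above the floor and for all 7442 genes above the floor (grey). At 0 the HNRNP line stands at 70.6%, above the grey line, the RBM line stands below it, and the HNRNP line reaches its top last, at HNRNPC.

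Among RBM genes that act in the spliceosome or in splice site choice, 9 of 13 above the floor were above 0, with a median of 0.11. RBM5 is an early spliceosome component and a candidate tumour suppressor. It read 6.43 in compressed and 6.07 in uncompressed cells, 1.28-fold higher. RBM10, its X-linked relative, differed by 0.21, and RBM6, its neighbour on chromosome 3, by 0.09. The antisense RNA RBM5-AS1 read 3.21 in compressed and 2.37 in uncompressed cells, below the floor.

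RBM39, a U2AF-related factor that anticancer sulfonamides target for degradation, read 8.01 in compressed and 7.72 in uncompressed cells. Its paralog RBM23 read 6.53 in compressed and 6.60 in uncompressed cells, on the other side of 0. RBM48, a subunit of the minor spliceosome, read 5.37 in compressed and 5.08 in uncompressed cells. RBM41, also tied to the minor spliceosome, differed by 0.14, RBM17, a factor of the 3′ splice site, by 0.14, RBM22, of the catalytic spliceosome, by 0.11, and RBM25 by 0.08. RBM42, RBM4B and RBM38, the last a p53-induced stabiliser of mRNAs, lay between -0.13 and -0.01.

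The largest RBM differences lay outside that group, in opposite directions. RBM18 read 6.60 in compressed and 6.15 in uncompressed cells, 1.36-fold higher. RBM47 encodes an epithelial splicing regulator and a cofactor of the APOBEC1 deaminase. It read 4.74 in compressed and 5.26 in uncompressed cells, a difference of -0.52 that was the most negative of the 55 genes. Its compressed value lies under the floor of 4.79, so the size of this difference is uncertain. It ranked 137th from the bottom of the 7442 genes.

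RBM19, which serves pre-ribosomal RNA processing, read 6.55 in compressed and 6.26 in uncompressed cells. RBM28, another ribosome assembly factor, differed by 0.05. RBM14, a paraspeckle protein, read 7.07 in compressed and 6.82 in uncompressed cells. RBM15 and RBM15B, which guide the adenosine methyltransferase to its targets, differed by 0.17 and 0.19. RBM33 differed by 0.20. These genes were all on the higher side, and all were under 0.32 in size.

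RBM8A, the Y14 subunit of the exon junction complex, read 6.96 in compressed and 6.98 in uncompressed cells. RBM7, of the nuclear exosome targeting complex, differed by 0.03, RBM26 by -0.09 and RBM27 by 0.02. RBM12, RBM34 and RBM45 lay between -0.12 and 0.07. Each of these 7 genes differed by 0.12 or less in size. RBM12B differed by 0.02 on the probe set used (5.87 in compressed, 5.85 in uncompressed cells). A second, dimmer probe set of it read 4.04 in compressed and 3.45 in uncompressed cells, a difference of 0.60, so its probe sets did not match in size.

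The 16 genes below the floor were 12 protein-coding genes and the 4 antisense RNAs. They include genes known for restricted expression: RBM20 and RBM24 of heart and muscle, RBM44 and RBM46 of germ cells, and RBM11 of brain and testis. RBM44 read 2.70 in compressed and 3.30 in uncompressed cells, and RBM20 read 3.83 in compressed and 3.89 in uncompressed cells. RBM46, RBM11, RBM43, RBM4 and RBM24 had differences from -0.28 to 0.26. Differences of dim probe sets scatter widely, and it is not known which of these signals exceeded background, so no fold is given. RBM12B-AS1 read 4.59 in compressed and 4.06 in uncompressed cells, and RBM15-AS1 differed by -0.16. The probe sets of RBM26-AS1 differed by 0.10 and -1.03.

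Among the kinases and partners of SR proteins most differences were above 0. This list and those below were chosen with earlier results of these data known, so their shares are a description only. Of 15 listed genes, 14 were above the floor. Among them 2 were at least 1.5-fold higher and 0 lower, against 3.95% and 1.12% of all genes above the floor. At the smaller size 6 were higher, against 13.5%, and 13 had a difference above 0, against 50.8%. The median was 0.20, against 0.01. CLK1, a nuclear kinase that phosphorylates SR proteins and releases them from speckles, read 6.42 in compressed and 5.51 in uncompressed cells, 1.88-fold higher. All 4 CLK kinase genes were on the higher side. CLK2 read 5.36 in compressed and 4.73 in uncompressed cells. CLK4 read 5.30 in compressed and 4.76 in uncompressed cells. The uncompressed values of CLK2 and CLK4 lie under the floor, so both genes passed it only through their compressed values. CLK2 is in the counts above at both sizes and CLK4 at the smaller one, so these counts depend partly on the filter. CLK3 read 7.52 in compressed and 7.08 in uncompressed cells. The cytoplasmic SR kinases differed less, SRPK1 by 0.16 and SRPK2 by 0.11. The SR-like proteins PNISR and SREK1 differed by 0.50 and 0.43, whereas TRA2A, TRA2B, SON and SRRM1 lay between -0.09 and 0.12.

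The core spliceosome genes with a named probe set above the floor leaned the other way, by small amounts. Of 57 genes above the floor in the lists of snRNP proteins, of branch site and U2 factors, and of PRPF proteins and helicases, 39 were below 0, with a median of -0.10. At 1.5-fold 1 was higher and 0 were lower, against 3.95% and 1.12%. At the smaller size 3 of the 57 were higher and 5 lower, against 13.5% and 8.28%. The share lower at that size was near the background. These lists held 26, 18 and 39 genes, of which 18, 8 and 34 had a named probe set. The other listed genes were therefore not analysed here. By list, 11 of 15 snRNP protein genes, 7 of 8 branch site and U2 factors and 21 of 34 PRPF and helicase genes were below 0, against the background of 46.8%. PRPF8, the central scaffold of the spliceosome, read 9.27 in compressed and 9.63 in uncompressed cells. Its partners in the U5 particle, the GTPase EFTUD2 (9.32 in compressed, 9.66 in uncompressed cells) and the helicase SNRNP200 (8.64 in compressed, 8.99 in uncompressed cells), differed by -0.34 and -0.35. U2AF2, which binds the polypyrimidine tract, read 9.26 in compressed and 9.62 in uncompressed cells. These 4 genes were each lower by 1.27-fold or 1.28-fold, and they are among the 5 past the smaller size.

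The gene past 1.5-fold in the core lists was PRPF39, a U1-associated factor, which read 5.78 in compressed and 5.19 in uncompressed cells (difference 0.59). It was under the rule after loess correction, centring or repeated quantile normalization, at 0.55 to 0.58. SNRNP48, a subunit of the minor spliceosome, read 6.19 in compressed and 5.71 in uncompressed cells. Another minor spliceosome subunit, SNRNP25, read 4.91 in compressed and 5.17 in uncompressed cells.

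**Figure D4:**
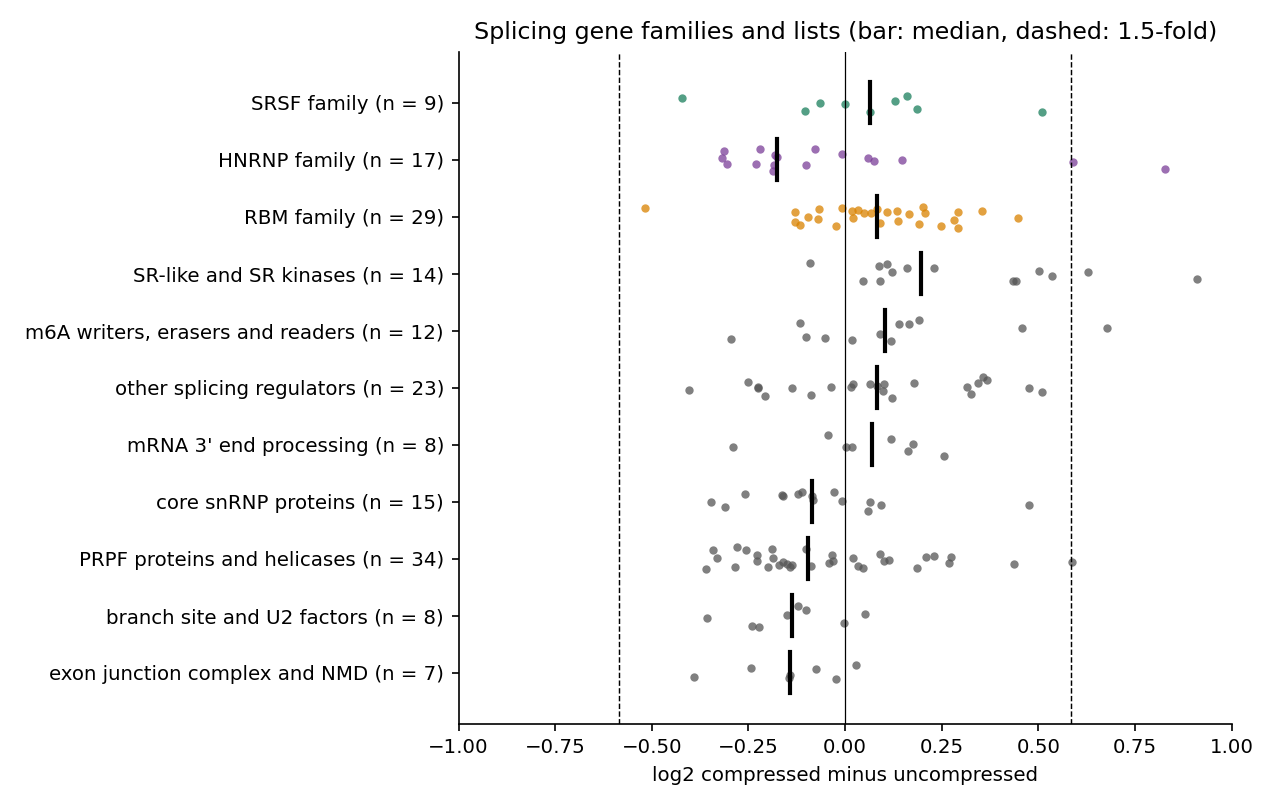
Log2 compressed minus uncompressed (horizontal axis) of each gene above the floor in the 3 families and in 8 lists of splicing and mRNA processing genes, with the median of each as a black bar and 1.5-fold as dashed lines. The SR-like and SR kinase list has the highest median, 0.20, and the HNRNP family the lowest, -0.18.

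Of 42 other splicing regulators listed, 27 had a named probe set and 23 were above the floor. Of the 23, 0 passed 1.5-fold in either direction, against 3.95% higher and 1.12% lower among all genes above the floor. A difference above 0 was seen for 15 of them, against 50.8% (median 0.08). TIA1, which promotes weak 5′ splice sites, read 5.73 in compressed and 5.22 in uncompressed cells. ESRP1, an epithelial splicing regulator, read 7.51 in compressed and 7.92 in uncompressed cells, the lowest difference of the list at -0.40. MBNL2 differed by 0.47 and PTBP1 by -0.25.

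Of 19 genes listed for adenosine methylation, 13 had a named probe set and 12 were above the floor. Of the 12, 1 was at least 1.5-fold higher and 0 were lower, against 3.95% and 1.12%. A difference above 0 was seen for 8 of them, against 50.8% (median 0.10). The gene past the size was IGF2BP2, a reader that stabilises mRNAs, at 6.92 in compressed and 6.24 in uncompressed cells (1.60-fold higher). The catalytic subunit gene METTL3 differed by 0.46 and the scaffold gene VIRMA by -0.30. This list holds RBM15 and RBM15B as well. The exon junction and decay list held 20 genes, 8 of them with a named probe set and 7 above the floor, RBM8A included. Of the 7, 0 passed in either direction, against 3.95% and 1.12%, and 6 were below 0, against 46.8% (median -0.14). The decay helicase gene UPF1 read 7.15 in compressed and 7.55 in uncompressed cells, and ALYREF, an export adaptor, differed by 0.03. The list for mRNA 3′ end processing held 21 genes, 8 of them with a named probe set and above the floor. Of the 8, 0 passed in either direction, against 3.95% and 1.12%, and 6 were above 0, against 50.8% (median 0.07). Among these PAPOLA, a poly(A) polymerase, differed by 0.26 and SYMPK, a scaffold of the cleavage complex, by -0.29.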

How the data were processed

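The authors deposited log2 signals per probe set. Their processing notes name RMA and the Transcriptome Analysis Console. RMA corrects background, quantile normalizes the arrays and summarises probes, which removes a shift shared by all genes. No version or genome build is given in the sources used here. Samples were grouped by the treatment characteristic. Probe sets with no gene symbol or with several symbols were left out, which kept 16098 of 53617. All 14884 genes of these were found in RefSeq (GRCh38.p14). The difference per gene was counted at 1.5-fold, without a test, among genes with a mean at or above the median, 4.79. The counting and correction steps were tested on simulated data. The members and lists were chosen with earlier results of these data known. Named are genes of at least 1.25-fold, the 10 largest differences each way, the 5 highest signals, the classical SR genes, genes with several probe sets and, per list, genes past 1.5-fold or else the extremes. Further members are named to account for all, and further list genes were chosen after their values were seen. Protein sequences were not used here. Alternatives covered the filter, the probe set, loess (span 0.3), centring, repeated quantile normalization, biotype, family and size. Computations used Python 3.11.15, NumPy 2.4.6, pandas 2.3.3, statsmodels 0.14.6 and matplotlib 3.10.9.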

Additional observations from a re-analysis of the deposited data

How the results depend on the processing

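The count of 2 genes at least 1.5-fold higher became 4 with no level filter, 1 with a filter at the 75th percentile, 1 after loess correction, 1 after centring on the median, 1 after repeated quantile normalization, 0 without the HNRNP family, 0 at 2-fold and 5 at 0.32 on the log2 scale. In each of the 4 settings with 1 gene left, HNRNPA1 was the gene lost, by the filter in the first and by falling just under the rule in the others. The count of 0 genes at least 1.5-fold lower became 1 with no level filter (RBM44) and 2 at 0.32 on the log2 scale. Both counts were as reported with the mean of all probe sets, with protein-coding genes alone and without the SRSF or the RBM family. The median of 0.03 lay between -0.07 (without the RBM family) and 0.07 (without the HNRNP family), so it has no settled sign. Of the 55 genes, 50 kept their sign under the 4 alternatives of probe set and scaling, and the other 5 had reported differences of 0.05 or less in size, of which RBM12B reached 0.31 with the mean of its probe sets. The self-made floor stands in for detection calls, which were not used here, so genes near 4.79 are the least certain. No paired analysis was possible because each condition has 1 array.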

Other observations

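Genes of these families that neighbour each other on a chromosome did not always go together. On chromosome 11 RBM14, RBM4 and RBM4B follow each other among protein-coding genes, and their differences were 0.25, 0.26 and -0.13, with RBM4 below the level floor. On chromosome 3 RBM6 and RBM5 follow each other, with differences of 0.09 and 0.36.

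Of the 5 pseudogenes that the name rule leaves out, HNRNPA3P1 read 2.08 in compressed and 2.61 in uncompressed cells, HNRNPKP3 read 3.66 in compressed and 3.97 in uncompressed cells, SRSF3P2 read 3.48 in compressed and 3.02 in uncompressed cells, and HNRNPA1P33 read 4.67 in compressed and 4.30 in uncompressed cells. All 4 lie below the floor, unlike HNRNPA1P10.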
